A study of Mus musculus with 3 samples.

Results

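In mouse sperm, 3916 windows of 500 bp carried a strong methylation signal in every library of a study of doxorubicin (DXR), a DNA-intercalating drug that poisons topoisomerase II. They made up 2.73% of the 143198 windows in the table. A window was counted when its RMS, a methylation score that the table gives per window and library, was 5 or more in all 3 libraries, its factor was below 6 and its mean RPM over the 3 libraries was below 15. RPM is the read density of a window scaled to library size. The factor is RMS divided by AMS, the table's second methylation score; it is the same in each library for a given window and is used below in place of CpG content, without a definition in the table. In all, 4401 windows had RMS of 5 or more in every library, of which 387 were left out for a factor of 6 or more and 98 for their RPM.

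The groups were a vehicle control given saline, a low dose of 0.02 mg/kg DXR and a high dose of 0.2 mg/kg DXR, with 1 library each. All animals were C57BL/6 mice, dosed by the intraperitoneal route 2 times weekly over 5 weeks between 8 and 13 weeks of age, with sperm taken from the cauda epididymis 4 days after the final dose at 14 weeks of age. How many mice went into a library is not stated in the labels. Without replicates there is no test, no p-value and no error between animals, and each difference is one between these libraries. Since the windows were chosen on their RMS in all 3 libraries, RMS, RPM, factor and every dose difference are given as a description, and nothing is supported with them.

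MBD-seq captures DNA fragments with the methyl-CpG-binding protein MBD2, so a window is strong when it holds several CpG sites and those sites are methylated. Most CpG sites of the sperm genome are methylated, in gene bodies, repeats and the space between genes, while CpG-island promoters are mostly free of methylation. A few imprinted loci, of which H19 is the best known, get their methylation mark in the male germ line, whereas most imprinted control regions are marked in the oocyte and stay unmethylated in sperm.

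Sequences are shown for the few strongly methylated windows at the start of a gene, which do not stand for the rest. Of 32851 RefSeq promoters on GRCm38.p6 (250 bases before to 50 after the gene's start), 27 had at least 150 bases inside a strongly methylated window and 15 lay wholly inside one. Of the 27, 6 belong to genes with an established name, and these are shown with every CpG in capitals, on the gene's own strand, 5′ to 3′. The Fblim1 promoter spans chr4:141606003-141606302 on the minus strand, Nedd4 chr9:72693048-72693347 on the plus strand, Slc6a9 chr4:117849100-117849399 on the plus strand, Plekhg5 chr4:152096469-152096768 on the plus strand, Ppp2r5c chr12:110485547-110485846 on the plus strand and Wiz chr17:32369373-32369672 on the minus strand.
Fblim1: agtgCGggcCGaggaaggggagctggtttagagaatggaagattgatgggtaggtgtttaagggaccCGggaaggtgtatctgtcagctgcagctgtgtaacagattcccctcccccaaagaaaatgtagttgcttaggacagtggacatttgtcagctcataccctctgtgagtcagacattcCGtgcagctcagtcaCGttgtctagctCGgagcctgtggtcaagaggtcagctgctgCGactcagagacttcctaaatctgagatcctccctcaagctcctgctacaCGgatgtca
Nedd4: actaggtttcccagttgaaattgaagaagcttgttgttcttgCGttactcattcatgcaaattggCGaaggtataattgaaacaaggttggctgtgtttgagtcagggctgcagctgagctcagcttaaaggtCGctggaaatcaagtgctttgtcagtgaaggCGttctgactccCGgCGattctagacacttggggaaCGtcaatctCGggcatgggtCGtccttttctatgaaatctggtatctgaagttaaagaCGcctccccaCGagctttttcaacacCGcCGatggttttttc
Slc6a9: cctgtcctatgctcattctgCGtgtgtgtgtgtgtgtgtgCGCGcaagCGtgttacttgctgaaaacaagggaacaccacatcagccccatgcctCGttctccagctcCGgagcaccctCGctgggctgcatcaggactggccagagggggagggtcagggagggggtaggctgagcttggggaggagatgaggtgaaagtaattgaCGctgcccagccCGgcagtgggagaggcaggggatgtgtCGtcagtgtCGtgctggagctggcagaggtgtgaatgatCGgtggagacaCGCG
Plekhg5: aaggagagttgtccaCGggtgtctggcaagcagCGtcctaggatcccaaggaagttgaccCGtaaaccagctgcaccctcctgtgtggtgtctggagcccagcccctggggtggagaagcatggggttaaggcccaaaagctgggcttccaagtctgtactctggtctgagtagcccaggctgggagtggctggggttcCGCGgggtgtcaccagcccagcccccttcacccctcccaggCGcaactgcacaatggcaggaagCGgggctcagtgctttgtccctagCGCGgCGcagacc
Ppp2r5c: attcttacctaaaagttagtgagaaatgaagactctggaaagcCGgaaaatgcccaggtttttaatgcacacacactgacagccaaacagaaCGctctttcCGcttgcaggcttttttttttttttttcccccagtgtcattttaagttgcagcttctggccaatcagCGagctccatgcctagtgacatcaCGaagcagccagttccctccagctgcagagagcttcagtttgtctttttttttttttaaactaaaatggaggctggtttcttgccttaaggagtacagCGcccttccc
Wiz: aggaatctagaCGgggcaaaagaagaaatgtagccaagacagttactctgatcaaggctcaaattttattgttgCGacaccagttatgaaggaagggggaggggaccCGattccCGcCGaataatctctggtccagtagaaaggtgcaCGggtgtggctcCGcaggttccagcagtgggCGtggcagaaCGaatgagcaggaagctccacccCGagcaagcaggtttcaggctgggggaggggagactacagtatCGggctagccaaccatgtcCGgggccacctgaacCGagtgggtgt

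By the deposited annotation the Nedd4 and Wiz windows were intronic, and those of Slc6a9, Plekhg5, Fblim1 and Ppp2r5c exonic. The RefSeq starts used here may therefore lie inside a longer transcript. These promoters held between 6 and 14 CpG sites each. Slc6a9, which encodes a glycine transporter, had 14 CpG sites in 300 bases, Nedd4, an E3 ubiquitin ligase gene, and Wiz, a zinc finger gene, had 13 each, and Plekhg5, a guanine nucleotide exchange factor gene, had 10. Fblim1, a filamin-binding LIM protein gene, had 8, and Ppp2r5c, a regulatory subunit of the phosphatase PP2A, had 6. Over the 27 promoters the median was 13 CpG sites, against 7 over all RefSeq promoters and 8 over the 430 promoters that lay wholly inside any window of the table. Across those 430, the CpG number and the factor of the window had a Spearman rho of 0.76; these promoters share their libraries, so the value is a description.

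In the vehicle, low dose and high dose libraries, RMS was 5.11, 6.01 and 7.29 for Nedd4, a window that was lowest in the control and highest at the high dose. It was 5.99, 5.61 and 5.57 for Fblim1, which was highest in the control. For Slc6a9 it was 5.84, 5.87 and 5.52, for Plekhg5 5.15, 5.41 and 6.56, for Ppp2r5c 6.98, 6.25 and 6.45, and for Wiz 5.94, 6.35 and 7.17. Searched on both strands, GGGCGG (the GC box) was in 3 of the 27 promoters, against 35.7% of all RefSeq promoters. CCAAT was in 11 of the 27, against 37.4%, and TATAAA in 2, against 13.6%. Neither the E-box CACGTG (7.15% of all promoters) nor the cAMP response element TGACGTCA (1.79%) was in any of the 27. No motif here contains another.

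The share of strongly methylated windows at promoters was close to that of all windows. Of the 3916, 34 (0.868%) overlapped a RefSeq promoter, against 0.978% of all windows. By the table's own annotation, 161 (4.11%) overlapped exon 1 of some transcript or its upstream flank, against 4.38% of all windows; exon 1 of a short transcript can lie deep inside a gene. Shares of this kind are set side by side as descriptions throughout, since windows are not replicates.

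Among first-exon windows, the strongest with an established gene name lay in exon 1 of Celsr2, a seven-pass cadherin gene of planar cell polarity. A second strong window in that exon touched it (together chr3:108412501-108413500). By mean RMS, a window annotated to Banp and predicted genes on chromosome 8 ranked between these 2. The first Celsr2 window had RMS 9.63 in the control, 11.4 at 0.02 mg/kg and 12.2 at 0.2 mg/kg, and the second had 9.20, 9.73 and 11.7. In both Celsr2 windows, the control was lowest and the high dose highest. A window over exons 1 and 2 of the AMP deaminase gene Ampd3 (chr7:110777501-110778000) had 7.74, 8.94 and 10.4, again in the order of dose. A window over exons 1 and 2 of Prdm16, a zinc finger factor known from brown fat (chr4:154528501-154529000), had 9.20, 8.04 and 8.58, with the control highest.

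By the table's annotation, exonic and intergenic windows took larger shares of the strongly methylated windows than of all windows, and intronic windows a smaller one. Exonic windows numbered 1154 (29.5%, against 26.7% of all windows), intronic windows 821 (21.0%, against 30.03%) and intergenic windows 1926 (49.2%, against 42.7%); the other 15 lay in flanks. At like read density the intergenic difference was reversed. In the 1958 strongly methylated windows inside the interquartile range of their mean RPM, 49.7% were intergenic, 30.9% exonic and 19.1% intronic. In the 10371 other windows of that RPM range the shares were 61.2%, 18.1% and 20.4%. At RMS of 6 or more in all 3 libraries, 25.7% were exonic, below the share of all windows. The 387 strong windows left out for their high factor were 7.24% exonic and 72.4% intergenic. Within genes the windows lay towards the end: 34.5% of those placed in a RefSeq gene were in its last 20% and 8.72% in its first 20%, against 29.6% and 11.7% of all windows. For 49.2% of the exonic windows the same exon also covered an adjacent listed window, against 33.1% of all exonic windows.

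Most of the windows stood alone. The 3916 windows formed 3741 runs of touching windows, of which 3580 were a single window, 151 held 2, 8 held 3, 1 held 4 and 1 held 6. In all, 336 (8.58%) touched another. The next window on either side was listed in the table for 58.2% and 58.7% of them, with a median RMS of 2.56 and 2.53 over the 3 libraries, against 6.54 in the windows themselves. Over all windows, 32.7% had a listed neighbour on a given side. Listed neighbours were thus more common beside a strongly methylated window. Their RMS was lower than that of the window itself, but the window was chosen for its high RMS, so nothing is read from that gap. Listed neighbours of all windows had a median RMS of 2.09 on either side, below the 2.56 and 2.53 given above. A neighbour that met the RMS limit in every library, whatever its factor and RPM, lay beside 5.87% and 5.72% of the strongly methylated windows. Over all windows these shares were 1.88% and 1.86%.

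**Figure D1:**
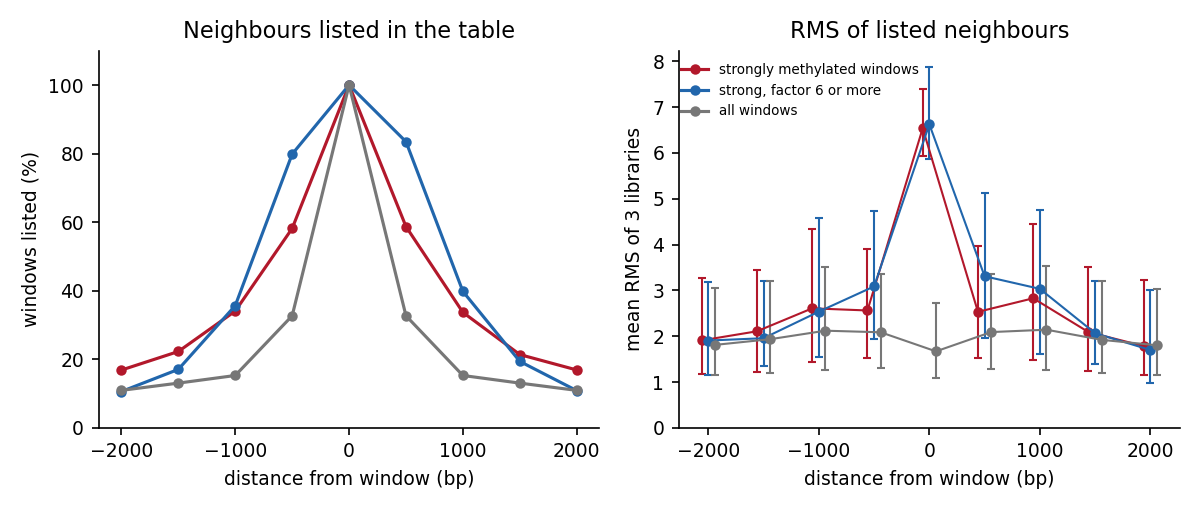
Left, percent of windows at each distance (bp, start to start) that were listed in the table; right, median RMS (mean of the 3 libraries, no unit) of those listed, with bars for the interquartile range. Strongly methylated windows (red) had a listed neighbour at 500 bp in 58.2% and 58.7% of cases, strong windows of factor 6 or more (blue) in 79.8% and 83.5%, and all windows (grey) in 32.7%.

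The longest run lay in Ttn, which encodes the giant sarcomere protein titin (ENSMUSG00000051747), and Ttn also held the most windows of any gene with an established name. Of its 123 listed windows, 17 were strongly methylated, and all 17 were exonic, as were 122 of the 123. The run of 6 windows (chr2:76709501-76712500) lay within 1 large exon near the 3′ end of the gene, numbered 186, 306, 307 or 341 depending on the transcript. Its peak window (chr2:76711501-76712000) had RMS 15.4 in the control, 13.1 at 0.02 mg/kg and 11.8 at 0.2 mg/kg, highest in the control and lowest at the high dose. The window before it had 10.2, 10.2 and 9.23.

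Over the 17 Ttn windows the median RMS was 7.44 in the control, 6.51 at 0.02 mg/kg and 7.18 at 0.2 mg/kg, against 2.15, 1.91 and 1.55 over the gene's other windows. Their median log2 change against the control was -0.16 after the high dose and -0.17 after the low one; divided by library medians, the high dose value was 0.03. The gene's other windows had medians of -0.34 and -0.20. The window with the largest low dose change among the 17 (chr2:76723001-76723500) had RMS 8.90 in the control, 5.30 at 0.02 mg/kg and 7.91 at 0.2 mg/kg, so that the low dose stood below both other libraries.

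**Figure D2:**
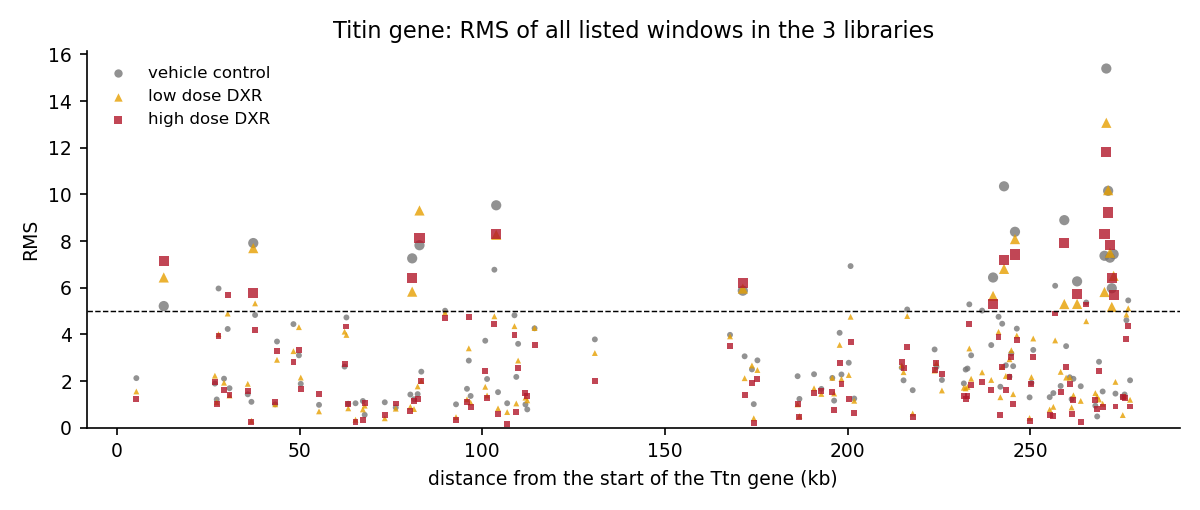
RMS (no unit) of all 123 listed Ttn windows against distance from the start of the gene (kb) in the vehicle, low dose and high dose libraries; large symbols are the 17 strongly methylated windows and the dashed line is RMS 5. The 6 touching windows stand at the right, with the peak window at 15.4 in the control, 13.1 at 0.02 mg/kg and 11.8 at 0.2 mg/kg.

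A run of 4 windows lay in the large exon of Spen (chr4:141474501-141476500, exon 11 or 12), which encodes a transcriptional repressor needed for silencing of the X chromosome. Its mean RMS was 5.98 in the control, 6.58 at 0.02 mg/kg and 7.51 at 0.2 mg/kg. All 7 strong Spen windows were higher at the high dose than in the control, with a median change of 0.21 that stayed above 0 under every scaling tried. Runs of 3 windows with an established gene name lay in Cntn5 (contactin 5, a neural adhesion protein; chr9:9921501-9923000), in Shank2 (a postsynaptic scaffold; chr7:144409501-144411000), in Ankrd50 and in Zfp553. The Cntn5 run averaged 6.67, 8.21 and 8.49 in the vehicle, low dose and high dose libraries, and the Shank2 run 6.82, 7.45 and 7.93. The run in Ankrd50, an ankyrin repeat gene (chr3:38455001-38456500), averaged 6.35, 7.04 and 7.15, and that in Zfp553, a zinc finger gene (chr7:127235501-127237000), 6.09, 5.51 and 5.76, with the control highest; these 2 runs were chosen after their values were seen. Another 3-window run (chr10:50422001-50423500) was intergenic, with 6.88, 7.50 and 7.15.

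Of the 15181 gene symbols in the table, 1557 (10.3%) had at least 1 strongly methylated window: 1214 had 1, 228 had 2, and 115 had 3 or more. After Ttn, the genes with an established name and the most windows were Gse1 with 9 of 134 listed windows, Dst (the cytoskeletal linker dystonin) with 8 of 135 and Agap1 (an Arf GTPase-activating protein) with 8 of 105. Ankrd11, an ankyrin repeat chromatin regulator, had 7 of only 23, or 30.4%, and Plec, the cytoskeletal linker plectin, 7 of 45. Spen had 7 of 44, Prdm16 7 of 108, the phosphatase gene Ptpn14 6 of 59 and Cit, the kinase citron of cytokinesis, 6 of 128. A predicted gene on chromosome 8 that overlaps Gse1 and Ankrd11 was annotated to 42. In several of these genes the windows shared 1 large exon: all but 2 of the 7 Spen windows did, and 5 of the 7 Plec windows lay in an exon numbered 32, 33 or 34 by transcript.

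The strongly methylated windows of these 10 genes did not lean one way with dose. At the high dose against the control, the median change was 0.28 for Ptpn14 (5 of 6 windows above 0), 0.15 for Plec (6 of 7) and 0.06 for Gse1 (7 of 9). It was -0.13 for Agap1 (1 of 8 above 0), -0.07 for Prdm16 (2 of 7), -0.04 for Cit (2 of 6), -0.03 for Dst (4 of 8) and 0.01 for Ankrd11 (4 of 7). Divided by library medians, the values of Agap1, Prdm16, Cit and Dst were above 0 (0.05 to 0.15). Under quantile normalization those of Gse1 and Ankrd11 were below 0 (-0.07 each), while Ptpn14 and Plec stayed above 0 under both. Over all listed windows of a gene, without rescaling, most medians were below 0. They were -0.28 for Agap1, -0.27 for Ttn, -0.24 for Dst and -0.15 for Ankrd11 and Prdm16. Cit and Gse1 had -0.07 and Ptpn14 -0.06, while Spen had 0.08 and Plec 0.09.

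On a list of cadherin and protocadherin genes, which encode adhesion proteins, 10 of the 18 genes found in the table had at least 1 strongly methylated window, with 21 of their 494 windows (4.25%), against 2.42% of all windows annotated to a gene. The difference was not tested. The list does not hold the whole family: Cdh18, described with the largest differences, was not on it and had 4 of 26. Celsr2 had 4, the giant cadherin Fat1 had 5 and Celsr1 had 3. An intronic window of Cdh4 (chr2:179489001-179489500) was the strongest at the high dose, with RMS 8.65 in the control, 9.76 at 0.02 mg/kg and 12.5 at 0.2 mg/kg. An exonic window of Celsr3 (chr9:108846001-108846500, exon 30) had 9.06, 7.87 and 5.95, the reverse order. Over the 21 windows the high dose change had a median of 0.09, and -0.02 under quantile normalization. Voltage-gated calcium and sodium channel genes had 6 of 348 windows in 4 of 19 listed genes, and collagen genes 4 of 267 in 3 of 22.

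Of the imprinted loci that carry their mark in sperm, 1 of 5 listed genes had a strongly methylated window, among 22 listed windows. It lay on exons of H19, a noncoding RNA gene whose control region is upstream of the gene (chr7:142576501-142577000), and had RMS 5.58 in the control, 5.94 at 0.02 mg/kg and 5.65 at 0.2 mg/kg. The 3 libraries stood close together there. Of the maternally marked loci, 2 of 12 listed genes had strongly methylated windows, 3 of their 133 windows (2.26%). Among all gene-annotated windows the share was 2.42%, and 10.3% of all gene symbols had at least 1. Nothing is read from so few. Igf2r, the IGF2 scavenger receptor gene, had its window in exon 44 (chr17:12688001-12688500, RMS 5.34, 5.14 and 5.92). Kcnq1, a potassium channel gene, had 2 intronic windows. Their RMS was 6.17, 7.22 and 5.61 (chr7:143198001-143198500) and 5.35, 5.20 and 6.08 (chr7:143380501-143381000). Where these exon and intron windows lie relative to the control regions was not examined.

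On the lists of germ cell genes, 4 windows of spermatogonial genes (2.70% of their listed windows) and 2 windows of spermatid and sperm genes (3.51% of 57) were strongly methylated, against 2.42% of all gene-annotated windows, with no test of the difference. Of 13 listed genes of spermatogonia, 3 had windows: the receptor gene Kit in 2 touching windows, the GDNF receptor gene Ret and the transcription factor gene Etv5. The intronic Kit window (chr5:75620001-75620500) had RMS 8.40 in the control, 5.78 at 0.02 mg/kg and 6.04 at 0.2 mg/kg, while the exonic one next to it had 8.04, 6.89 and 8.01. The control was highest in both, by little in the exonic one. Etv5 (chr16:22395001-22395500) had 7.59, 9.85 and 7.65, with the low dose apart from the other libraries. Among spermatid and sperm genes, 2 of 17 had a window, the sperm ion channel gene Catsper2 (5.96, 6.87 and 6.26) and the zona pellucida binding gene Zpbp (5.42, 6.80 and 6.28). No window lay in the 13 listed germline-specific genes (68 windows in the table), the 13 pluripotency genes (55), the 11 apoptosis genes (69) or the 11 homeobox genes (66). At the share of all gene-annotated windows, 2.42%, lists of that size would hold few.

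Among regulators of DNA methylation and chromatin, 3 of 134 windows (2.24%) were strongly methylated, and among genes of the DNA damage response 2 of 98 (2.04%), both near the 2.42% of all gene-annotated windows. Of 21 listed chromatin genes, 3 had 1 window each. The window over exons of Dnmt3a, the de novo DNA methyltransferase gene of the male germ line (chr12:3907501-3908000), had RMS 5.95 in the control, 6.98 at 0.02 mg/kg and 8.13 at 0.2 mg/kg, in the order of dose. The demethylase gene Kdm1b had 6.43, 6.00 and 6.48, and Mbd1, a methyl-CpG-binding protein gene, had 7.37, 5.91 and 6.83. Of 20 DNA damage genes, Trp53, which encodes p53, had an exonic window with 5.68, 6.21 and 5.38, and Prkdc, the DNA-dependent protein kinase gene, an intronic one with 5.52, 5.37 and 5.57.

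MicroRNA hairpins lay wholly or partly in 9 of the strongly methylated windows, out of 159 hairpins in any listed window (5.66%), against 2.73% of all windows. The hairpin of Mir6941 (chr12:112920483-112920541) was only partly inside, as its window ended at 112920500. All 9 windows were exonic, and of all exonic windows 3.02% were strongly methylated; nothing is read from so few. They are short RNAs that guide repression of target transcripts by their seed, bases 2 to 8. In 2 of the 9, the table annotates the window to the microRNA gene itself, and these 2 were chosen after their values were seen. Mir26a-1 lies within Ctdspl (chr9:119031796-119031885, plus strand) and Mir1306 within Dgcr8, a gene of microRNA processing (chr16:18284239-18284317, minus strand). Hairpins are shown as RefSeq RNA with CpG in capitals, and the mature strands with the seed in capitals.
Mir26a-1 hairpin: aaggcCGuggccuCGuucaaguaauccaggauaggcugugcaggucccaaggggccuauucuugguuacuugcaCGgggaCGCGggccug
Mir1306 hairpin: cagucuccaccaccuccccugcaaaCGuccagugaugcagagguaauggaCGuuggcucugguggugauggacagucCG
mmu-miR-26a-5p: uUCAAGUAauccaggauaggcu
mmu-miR-1306-3p: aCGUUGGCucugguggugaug

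The Mir26a-1 hairpin held 5 CpG sites, in a window of RMS 5.36 in the control, 6.06 at 0.02 mg/kg and 5.30 at 0.2 mg/kg. The Mir1306 hairpin held 3, and its window had 7.15, 6.56 and 6.49. Differences were small in both windows, and the seeds of the mature strands shown are not alike.

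On the chromosomes, the windows were spread over all autosomes and were scarce on the sex chromosomes. They made up 2.79% of autosomal windows, between 2.17% on chromosome 19 and 3.22% on chromosome 4. On the X chromosome they were 38 of 3518 windows (1.08%) and on the Y chromosome 17 of 1439 (1.18%). A sperm carries 1 sex chromosome, either X or Y, so each is present in a part of the cells. Whether this bears on the low shares was not tested. The median RMS over all listed windows was 1.67 both on the X chromosome and on the autosomes, and 1.53 on the Y chromosome. These medians cover listed windows only, and the table holds no window whose highest RMS is under 1.0.

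**Figure D3:**
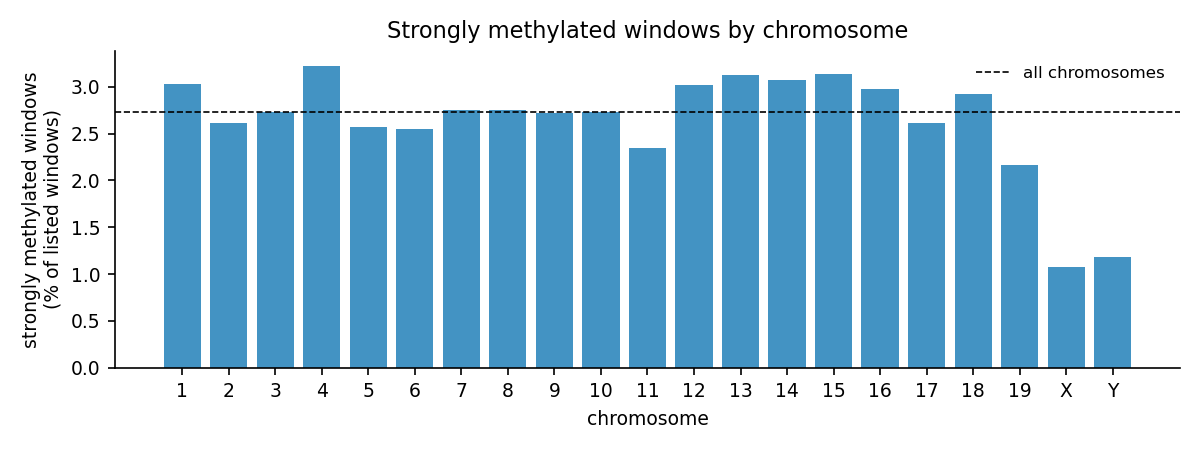
Strongly methylated windows as a percent of the listed windows of each chromosome; the dashed line is the percent over all chromosomes, 2.73%. Autosomes lie between 2.17% (19) and 3.22% (4), and X (1.08%) and Y (1.18%) lie below all of them.

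Along a chromosome some stretches were dense. The 1 Mb at 147 Mb of chromosome 4 held 23 strongly methylated windows of 127 listed, all in or beside predicted genes. The 1 Mb with Ttn (76 Mb of chromosome 2) held 20 of 191, and that with Plec (76 Mb of chromosome 15) 18 of 244. Stretches at 6 Mb of chromosome 17 (14 of 194) and, with 13 windows each, at 3 Mb of chromosome 9 (13 of 114), 154 Mb of chromosome 4 (13 of 237) and 112 Mb of chromosome 12 (13 of 264) followed. Of the windows, 88 (2.25%) lay in 5 stretches, chosen after the data were seen, that hold many like predicted genes or are the Y chromosome, where reads of near-identical copies may have been shared among windows. The values without them are given in the closing section.

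Of the 12 strongest windows, 5 lay in such stretches. The highest mean RMS was in chr9:3006001-3006500, with 17.4 in the control, 17.6 at 0.02 mg/kg and 17.7 at 0.2 mg/kg. Next was chr13:119601501-119602000, with 15.3, 19.7 and 16.8. Both had low factors, 1.6 and 1.0, and lay in predicted genes. Outside predicted genes, the strongest were an intergenic window (chr12:95822501-95823000) with 11.4, 14.1 and 17.2, another intergenic one (chr4:80585001-80585500) with 13.0, 14.7 and 12.9, the Ttn peak window, an intergenic window (chr12:69548001-69548500) with 11.5, 13.3 and 15.3, and an intronic window of the mitochondrial magnesium channel gene Mrs2 (chr13:25007501-25008000) with 11.1, 13.5 and 15.4. In the Mrs2 window and both chromosome 12 windows the order was that of dose.

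The factor split the windows in a regular way. They were 0.186% of listed windows with a factor below 2 (47 windows), 0.564% from 2 to 3 (372), 4.14% from 3 to 4 (1375), 11.9% from 4 to 5 (1238) and 17.1% from 5 to 6 (884). Their median factor was 4.0 (interquartile range 3.4 to 4.8), against 2.6 over all windows. The median mean RPM was 8.20, against 2.31. AMS medians were 1.60, 1.66 and 1.73 in the vehicle, low dose and high dose libraries, and AMS was highest where the factor was low: 4.13, 4.28 and 4.68 in the 47 windows below 2, against 1.17, 1.28 and 1.36 from 5 to 6. These relations follow in part from the rule, which sets a floor on RMS and a limit on factor.

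At the limits of the rule, the windows just inside and just outside were alike. The lowest RMS inside was 5.0006 in the control library (chr7:140739001-140739500), and the highest outside was 4.9998, also in the control (chr18:40615501-40616000). The mean RPM nearest the limit was 14.998 inside (chr4:147225001-147225500) and 15.017 outside (chr11:3150001-3150500), and a Fat1 exon 1 window stood at 14.972. The largest factor inside was 5.8 and the smallest outside 6.0. For all 3 windows nearest the RMS limit on each side, the control was the library that set the side.

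The dose comparisons asked how the level of these windows stood after the low and the high dose. Median RMS was 6.25 in the control (interquartile range 5.60 to 7.12), 6.53 at the low dose (5.81 to 7.50) and 6.83 at the high dose (5.99 to 7.91), while over all listed windows it was 1.80, 1.67 and 1.57. The strongly methylated windows thus stood higher, and the whole table lower, in the treated libraries. They held 7.82%, 8.55% and 9.18% of the summed RMS of the table, and 6.65%, 7.07% and 7.45% of the summed RPM, in the same order.

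A change is log2 of treated over reference RMS, each with 0.766 added. Its median was 0.12 at the high dose against the control (-0.10 over all windows), 0.06 at the low dose against the control (-0.05) and 0.05 at the high dose against the low dose (-0.04). With quantile normalization, which gives the libraries 1 common distribution, these medians were -0.0080, -0.0056 and -0.0022, so their direction depends on the scaling. Divided by library medians, the high dose median was 0.29 for these windows and 0.04 for all windows, a shift of all windows upward from -0.10. At the high dose 70.6% of the windows were above the control, against 39.2% of all windows; at the low dose the shares were 62.3% and 43.3%. Both comparisons use the same control library.

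At the high dose against the control, the median change was 0.04 in windows of mean RMS 3 to 4 and 0.08 in those of 4 to 5. In the 1958 strongly methylated windows inside the interquartile range of their mean RPM (6.54 to 10.2), the median was 0.11, against 0.10 in the 10371 other windows of the same RPM range. At the low dose these were 0.06 and 0.07. After subtraction of the median change of all windows of like RPM and factor, the medians were 0.015 at the high dose and 0.00086 at the low dose. The part of read density in the change was not tested further, and with 1 library per group the library and the dose cannot be told apart.

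**Figure D4:**
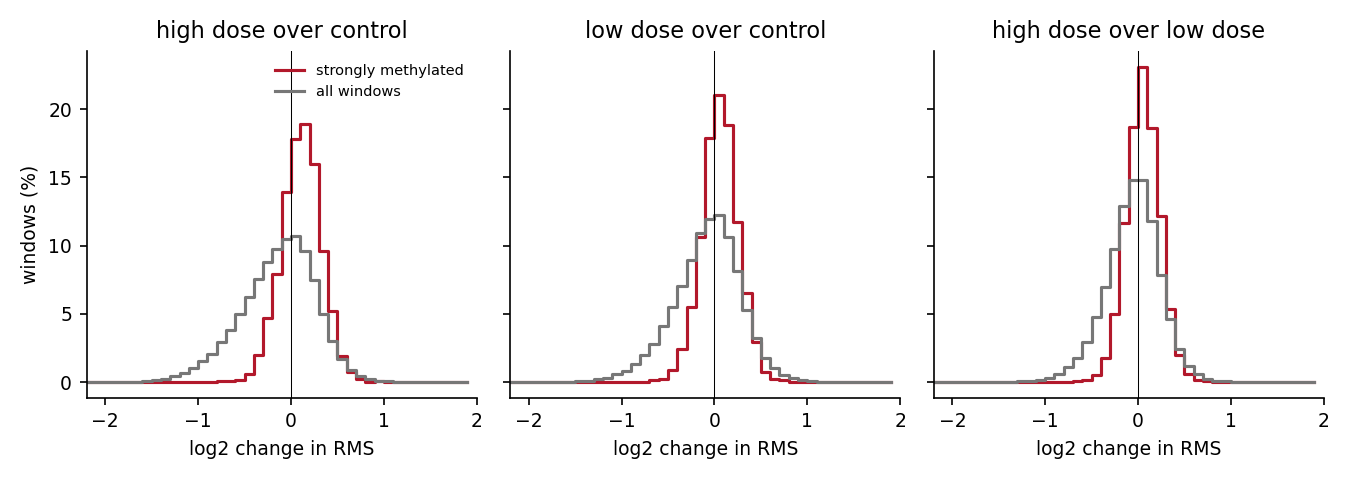
Distribution of the log2 change in RMS (0.766 added to each value) in bins of 0.1, as a percent of windows, for strongly methylated windows (red) and all windows (grey), in the 3 comparisons. Medians of the strongly methylated windows are 0.12, 0.06 and 0.05, against -0.10, -0.05 and -0.04 over all windows; under quantile normalization those of the strongly methylated windows are below 0.

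No strongly methylated window differed by 2-fold in any comparison. Of all windows, 0.0824% stood 2-fold higher at the high dose than in the control and 2.52% lower; at the low dose, 0.12% were higher and 1.24% lower; and at the high against the low dose, 0.0293% and 0.33%. The largest changes were 0.96 upward and -0.96 downward at the high dose, and 0.89 and -0.67 at the low dose. At a limit of 1.5-fold, added after the data were seen, there were 48 higher and 9 lower windows at the high dose (1.86% and 13.6% of all windows), 18 and 6 at the low dose (2.25% and 8.73%), and 14 and 3 at the high against the low dose (1.13% and 4.43%). A floor of RMS 5 in every library limits how far a window can fall, but not how far it can rise. Since the windows were chosen on these same values, nothing is read from these counts.

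The SD of the change was 0.21 at the high dose and 0.20 at the low dose, against 0.39 and 0.36 over all windows. In the other windows of the RPM range given above it was 0.22 and 0.21, close to that of the strongly methylated windows. In 33.3% of the windows RMS ran control, low dose, high dose from lowest to highest, against 14.99% of all windows. The reverse order was found in 8.91%, against 27.9%. These orders are of RMS as deposited and depend on the scaling. Under quantile normalization, 48.3% of the windows were higher at the high dose than in the control and 48.6% at the low dose. Between the doses, 49.3% were then higher at the high dose, and 48.4% with RPM in place of RMS.

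The largest upward difference at the high dose was in Rrp7a, a gene of ribosomal RNA processing (chr15:83117501-83118000, exons 1, 2 or 6 by transcript). It had RMS 11.3 at the high dose, against 5.40 in the control, and 6.71 at the low dose. Rassf1, a Ras-association tumour suppressor gene, had 11.3 at the high dose, against 5.53 in the control, in a window over exons 1 and 2 of some of its transcripts (chr9:107558001-107558500); at the low dose it had 8.62. Lrp10, a lipoprotein receptor-related gene, had 11.2 in exon 6, against 5.60 in the control (chr14:54469001-54469500). An intronic window of Cdh18, a neural cadherin gene, had 10.8, against 5.68 in the control, and its low dose value of 10.4 was close to that of the high dose (chr15:22751501-22752000). In these 4 windows both treated libraries were above the control, which they share.

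The largest downward difference at the high dose was in an intergenic window (chr12:20232001-20232500), with 6.37 at the high dose, against 13.1 in the control. It lay in a stretch of like copies. Next was a window shared by the synaptic calcium sensor gene Doc2a and the chromatin remodeller subunit gene Ino80e (chr7:126852501-126853000), with 5.09, against 9.29 in the control. The gel-forming mucin gene Muc19 had 5.38, against 9.37 in the control, at an exon 1 (chr15:91909001-91909500). The transcription factor gene Bach2 had 5.10, against 8.48, in an intron (chr4:32326501-32327000), and Uaca 5.37, against 8.80, in exon 16 (chr9:60871501-60872000). The low dose value lay between the others in each of these 5 windows.

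**Figure D5:**
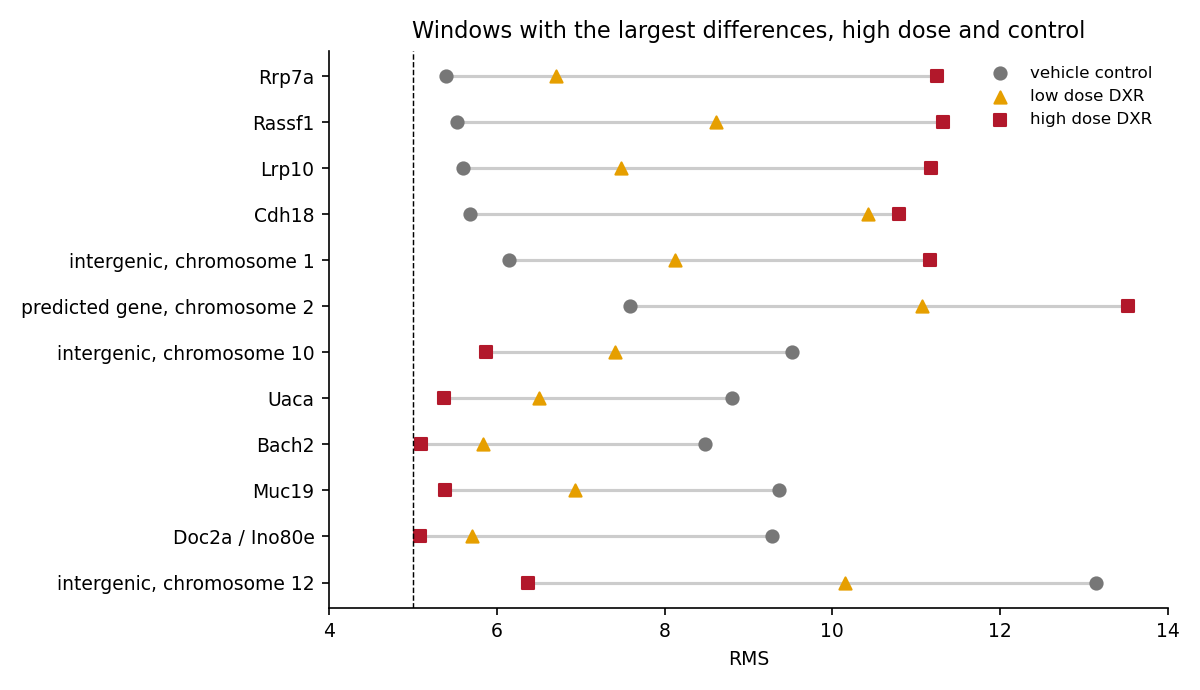
RMS (no unit) in the vehicle, low dose and high dose libraries for the 6 windows with the largest upward and the 6 with the largest downward change at the high dose; the dashed line is the lower limit of 5. Upward windows reach 10.8 to 13.5 at the high dose, and downward windows lie between 5.09 and 6.37 there.

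At the low dose the largest upward difference was in an intron of ERDR1 on the Y chromosome (chrY:90792001-90792500), with RMS 12.5 at the low dose, against 6.42 in the control. The high dose library had 6.52, close to the control. Cdkal1, a tRNA-modifying enzyme gene, had 10.2 at the low dose, against 5.57 in the control, and 8.18 at the high dose. Crocc, which encodes the ciliary rootlet protein rootletin, had 9.46, against 5.34 in the control, and 9.35 at the high dose. Downward, the Ttn window above was first, followed by Arfgef2, an ARF exchange factor gene, with 6.06 at the low dose, against 9.86 in the control, and 8.51 at the high dose. Tspan5 (a tetraspanin gene) had 5.02, against 8.14, Dgkg (a diacylglycerol kinase gene) 5.48, against 8.71, and Rpgrip1 (a photoreceptor cilium gene) 5.02, against 7.98.

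Between the doses, Cactin, a gene of pre-mRNA splicing, had RMS 12.8 in exon 8 at the high dose, against 7.27 at the low dose (chr10:81325001-81325500). The control stood between them at 8.60. An intergenic window (chr7:11479501-11480000) had 10.1 at the high dose, against 5.69 at the low dose. Downward, an intronic window of the ubiquitin ligase gene Nedd4l had 5.02 at the high dose, against 8.17 at the low dose (chr18:64981501-64982000). Across the windows with the largest differences, the low dose library thus stood between the others in some and apart from both in others.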

How the data were processed

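DNA methylation in sperm was measured by MBD-seq in 3 libraries, 1 per group. The authors deposited 1 table over windows of 500 bp, annotated to Ensembl transcripts per the file headers; mm10 is named as the build in the submitters' processing notes. No label or header names the aligner, the read filters or the program. The deposited RPM values are, per the file headers, read densities scaled to library size; RMS and AMS are deposited methylation scores whose names the headers do not spell out. A ratio of low dose over control RMS, also deposited, was not used. Read depth per window is not known, so no counting interval is given.

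The 297037 lines were reduced to 143198 windows, each counted once, and the rule was applied to RMS, factor and RPM. Changes are log2 of RMS plus 0.766, the 10th percentile of values above 0. Higher or lower means 2-fold on this scale. Python 3.11.15, numpy 2.4.6, pandas 2.3.3 and scipy 1.17.1 were used, and the steps were tested on simulated data. Promoters and microRNAs came from RefSeq on GRCm38.p6, the same assembly as mm10; CpG counts of whole windows were not analysed here. The windows and the gene lists were chosen with earlier results of these data known.

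Named were the 12 strongest windows, the 6 largest changes each way against the control and 3 between doses, the 10 strongest first-exon windows, the 5 longest runs, the 10 genes with most windows, gene list members and windows at the limits; predicted genes and clones were named by coordinates only. Not every window so chosen is described. Alternatives were another pseudocount, other scalings, RPM in place of RMS and other limits.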

Additional observations from a re-analysis of the deposited data

How the results depend on the processing

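No paired analysis was possible because each group has 1 library; for the same reason no library could be left out. The median changes at the high dose, at the low dose and between the doses were 0.096, 0.047 and 0.045 with the pseudocount multiplied by 3, 0.29, 0.15 and 0.14 divided by library medians, and -0.0080, -0.0056 and -0.0022 with quantile normalization. With RPM in place of RMS they were 0.13, 0.13 and -0.0076, and with the trend in RPM and factor subtracted (chosen after seeing the data) 0.015, 0.00086 and 0.015. With RMS of 4 or more they were 0.094, 0.047 and 0.043; with RMS of 6 or more the high dose median was 0.13 and that between the doses 0.065. The cause of the reversals under quantile normalization and RPM was not tested. Against 0 windows past 2-fold, dividing the pseudocount by 3 gave 2 higher and 1 lower window at the high dose, 4 were higher divided by library medians, 1 was lower with quantile normalization or with the trend subtracted, and 5 were higher at the low dose without the limits on factor and RPM; at 1.5-fold (chosen after seeing the data) the counts were 48, 9, 18 and 6. The windows numbered 9062 at RMS of 4 or more and 1730 at 6 or more. The share touching another was 13.8% and 5.43% at these limits, 13.5% without limits on factor and RPM, and 13.8% with starts up to 1000 bp apart. At RMS of 6 or more, 25.7% were exonic, 53.2% intergenic and 0.578% on the X chromosome; without the other limits, 27.6% and 51.0% were exonic and intergenic. With stretches of like copies left out (chosen after seeing the data), 3828 windows had medians of 0.12, 0.06 and 0.05, none past 2-fold, with 29.8% exonic, 49.2% intergenic, 8.25% touching another and 0.993% on the X chromosome. None of the 30 largest changes changed sign under 6 settings. They were picked for the size of the change, so a change of sign was unlikely and nothing is read from this. The unknown depth limits every single window.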

Other observations

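Among the strongly methylated windows, the median mean RPM rose with the factor. It was 3.60 below 2, 5.39 from 2 to 3 and 11.1 from 5 to 6, against 8.20 over all 3916. The 47 windows with a factor below 2 were thus the low end of a gradient. They include an intronic window of the G protein gene Gnaq (RMS 7.06, 5.61 and 7.41 in the vehicle, low dose and high dose libraries), an intronic window of Large, a glycosyltransferase gene of dystroglycan (5.82, 6.31 and 8.45), and an exonic window of Ihh, the signalling protein gene Indian hedgehog (5.14, 5.84 and 5.42). Schip1 had 5.91, 7.16 and 8.41 in an intron, and the coagulation cofactor gene Pros1 5.56, 6.31 and 7.41. These genes were chosen after their values were seen. At the high dose the change had a median of 0.16 in these 47 windows, 0.02 in the 372 with a factor from 2 to 3, 0.08 from 3 to 4, 0.13 from 4 to 5 and 0.16 from 5 to 6.

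In 5 stretches of like copies, 88 of 2465 listed windows (3.57%) were strongly methylated. On chromosome 9 at 3 Mb, the windows of a predicted gene had a mean RMS of 9.95 in the control, 9.56 at 0.02 mg/kg and 11.0 at 0.2 mg/kg over 10 windows. On chromosome 4 at 147 Mb, 16 windows of another predicted gene had 8.59, 8.26 and 7.98. On chromosome 17 at 6 Mb, 5 windows of yet another had 6.64, 6.73 and 5.98. The 3 stretches thus did not share an order of the libraries.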
